A study of Mus musculus with 28 samples.

Results

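Older and younger adult ages were compared in the liver of male C57BL/6 mice. The older set pooled the 4 arrays of mice aged 18 months and the 4 arrays of mice aged 24 months. The younger set pooled the 4 arrays at 6 months and the 4 at 12 months. These 16 arrays, chosen by strain and age, are part of a series of 28; the remaining arrays, from developing and young C3H mice, were not used. Each array held total RNA from the liver of 1 mouse, measured on an Affymetrix whole-genome mouse GeneChip. The series set middle and old age, and earlier stages of development, against the adult liver.

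Per the labels, the mice came from Charles River Laboratory at about the ages named and were killed with carbon dioxide after a period of acclimation. All were untreated males on one diet, and the sources used here name no genetic change or treatment in any of the 4 age groups. The strain is spelled C57BL/6 in one label and C57Bl6/J in another. Each animal was seen at 1 age, so no animal was followed over time, and parts of the left and median lobes had been set aside for histology before the rest was frozen. The labels hold no time of day at death and no date of purchase or hybridisation.

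The liver is built mainly of hepatocytes, which make most plasma proteins, store and release fuel and detoxify foreign compounds. Detoxification runs in steps: phase I enzymes such as the cytochrome P450s and carboxylesterases change a compound, phase II enzymes attach a water-soluble group, and transporters move the product out of the cell. Hepatocytes also carry out the acute phase response, in which signals such as interleukin-6, acting through the factor STAT3, raise the output of defence proteins into blood. Kupffer cells, the resident macrophages of the liver, and a changing number of lymphocytes and granulocytes share the tissue.

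Levels are given as log2(intensity + 16) after quantile normalization of the 16 arrays, and changes as differences on that scale with the standard error (SE) of the fit; this scale understates the change of dim genes. A change "passed" where its p-value from limma, adjusted by Benjamini-Hochberg over all 18193 genes, was under 0.05. A level at or under 6.1 is not well above background. The tissue matched its label: all 5 hepatocyte markers (Alb, Ttr, Apoa1, Serpina1c and Cyp3a11) were above background on every array, and their summed level ran from 15.97 to 16.1 over the 16 arrays. The mean correlation of an array with the others of its age lay between 0.977 and 0.985. Mean intensity before normalization was 278.5 to 298.4 at 24 months and 175 to 292.2 at the other ages. The control probe sets for Gapdh and beta-actin compare the 3′ with the 5′ end of a transcript, and their ratios tended lower at 24 months. For Gapdh the log2 ratio was -0.28 to -0.24 there against -0.23 to -0.08 elsewhere, without overlap. For beta-actin it was 0.45 to 0.58 against 0.57 to 0.86, and these ranges overlapped.

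Between the sets, 101 of 18193 genes (0.555%) passed, 67 of them higher (0.368%) and 34 lower (0.187%) in the older set. The largest rises were those of the immunoglobulin genes Ighm and Igkv8-30, of Lcn2, of Acnat2 and of the acute phase gene Orm2; genes induced by interferon rose as well. The largest falls were those of the carboxylesterase gene Ces2b and the glucuronosyltransferase gene Ugt2b38. Chst7, Rnase1, Arhgap4, Wfikkn1 and Neurl2 came next, and of these only Arhgap4 was above background in an age mean. Cyp4a12a and other enzymes of hepatocyte metabolism followed with smaller falls. Most changes were small, and 71 of the 101 genes differed by 1.5-fold or less while 12 differed by more than 2-fold. All 8 older arrays lay beyond all 8 younger arrays for 25 of the 101; over all genes tested, 40 (0.22%) were separated in that way, 26 higher (0.143%) and 14 lower (0.077%). In simulated data with the spread of these arrays, the fit recovered 84% of genes changed 1.5-fold and 98% of those changed 2-fold, so small changes could be missed at this number of animals.

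Which older group carried the change depended on how the question was put. Against the same younger set, 371 genes (2.04%) passed at 24 months, 153 of them higher (0.841%) and 218 lower (1.2%), and 1 gene (0.0055%) passed at 18 months, where 1322 had an unadjusted p under 0.05. Of the 101 genes, 1 therefore passed in both older groups, 88 in 24 months alone, 0 in 18 months alone and 12 in neither group by itself. For the 88 genes, 58 higher and 30 lower, the change at 18 months was a median 69.2% (19.6% to 133%) of the change at 24 months. The 88 were defined by passing at 24 months and not at 18 months, so a smaller change at 18 months follows largely from that definition. The 101 genes were chosen on the average of these changes, which also share the younger arrays, so a like sign at both ages follows largely from that choice and nothing is read from it. The test that 24 months alone would need is 24 months against 18 months. In limma, it gave 0 of 18193 genes (0%) after adjustment, with a lowest adjusted p of 0.151; 1731 genes, 34 of the 88 among them, had an unadjusted p under 0.05. The label "24 months alone" below thus says which test was passed and not that the groups at 18 and 24 months differed. Replicate numbers were 25 to 34 at 24 months and 2 to 21 at the other ages. Age and the numbering of the animals therefore cannot be told apart at 24 months.

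**Figure D1:**
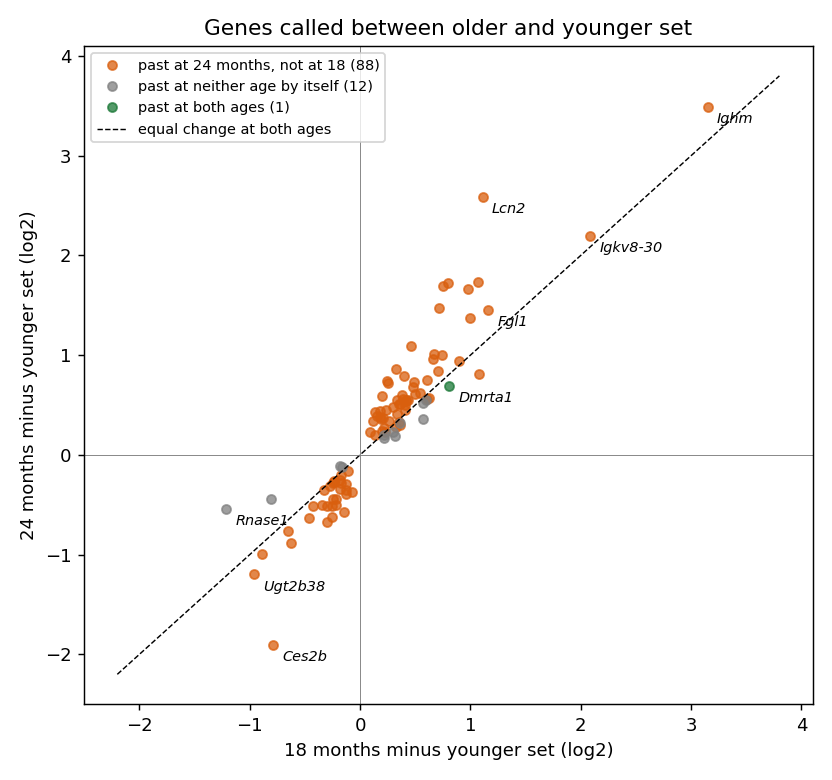
Change of the 101 genes at 18 months (horizontal axis) and at 24 months (vertical axis), each against the younger set, in log2 units; colour shows at which age the gene passed. The genes were called on the average of the plotted changes, which share their younger arrays, so that points lie in the lower left and upper right follows largely from that choice; 82 of the 101 lie farther from 0 at 24 months than at 18 months.

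Dmrta1 was the 1 gene that passed in both older groups. It belongs to the DMRT family of DNA-binding proteins. Its levels were 4.85, 4.95, 5.03 and 4.98 at 6 months, 5.37, 5.38, 5.33 and 5.26 at 12 months, 5.73, 6.21, 5.95 and 5.92 at 18 months and 5.67, 5.64, 5.84 and 6.18 at 24 months. The sets did not overlap, but only 2 older arrays were above background, so no fold is given (adjusted p = 0.00472 for the sets, 0.0296 at 18 months and 0.00746 at 24 months). Without 12 months replicates 13 and 17 it passed for the sets (adjusted p = 0.0224) and at 24 months (adjusted p = 0.0251) but not at 18 months, and the 1 gene then past in both older groups was 3300002P13Rik, a lower gene that was above background on 0 arrays. Syngr1, which encodes the vesicle protein synaptogyrin 1, shows how close the boundary between the classes lay. It differed from the younger set by 1.08 at 18 months (adjusted p = 0.0648) and by 0.81 at 24 months (adjusted p = 0.0229), so the smaller change passed and the larger did not; both have the same standard error, and more genes had low p-values at 24 months. No younger array was above background for Syngr1, and the older set was at least 1.35-fold higher.

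The 12 genes past in neither group by itself changed at least as much at 18 months as at 24 months, with 18 months at a median 132.1% (108.1% to 224.4%) of 24 months. This class leaves out genes that passed at 24 months, so a smaller change there follows in part from its definition. Fasn, the fatty acid synthase, rose by 0.58 ± 0.11 (SE, adjusted p = 0.04 for the sets), with 0.60 at 18 months and 0.56 at 24 months. Cars, which charges the transfer RNA for cysteine, rose by 0.46, with 0.57 and 0.36. The glycolytic enzyme gene Pgk1 fell by 0.14 ± 0.03 (SE, adjusted p = 0.025) and the translation factor gene Eif4a2 fell by 0.15 ± 0.02 (SE, adjusted p = 0.0147). The remaining genes of this class were Adam23, Jpt2, Gaa, Tmem41a, Tram1 and Nfia among the rises and Neurl2 and Rnase1 among the falls. With 6 months alone as the reference, 18 of the 101 genes passed at both 18 and 24 months and 68 at 24 months alone. The 18 were Ighm, Fgl1, Dmrta1, Ifi27, Tmem176a, Rbm43, Pamr1, Tmem176b, Ddx58, Parp3, Gaa, Itih4, Rab34, Nfia and Hp among the rises, and Pgk1, Eif4a2 and Mtf1 among the falls.

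These counts moved with single animals and with covariates for the 3′ to 5′ ratios. The count for the sets was 46 without 24 months replicate 33 and 212 without 24 months replicate 34, and it was also moved more than 1.5 times, to between 51 and 67, without 6 months replicate 11, 16 or 21, 12 months replicate 17, 18 months replicate 14 or 24 months replicate 29; with the Gapdh ratio as a covariate 6 genes passed, 2 of them among the 101, and with the beta-actin ratio 0 in limma, where 2155 had an unadjusted p under 0.05. All 101 genes kept their sign, and the sizes were at a median 97.6% and 99.7% of their values without these covariates, with the lowest at 54.4% and 61.3%. The part of RNA quality in the calls was not tested. Of the 101 genes, 40 passed in all 16 fits that left out 1 animal, Fgl1, Orm2 and Acnat2 among them. Others were less steady: Lcn2, Ly6e, Fasn, Acly and Cyp2j6 passed in 5 of the 16, and S100a8, Fgfr4, Otc and Cp in 3. At 24 months 371 calls became 34 without replicate 33 and, without replicate 25, 48 rises and 43 falls. Of the genes named below as past at 24 months but not between the sets, none passed there in limma without replicate 25 or without replicate 33.

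Ighm and Igkv8-30 had the largest rises. Ighm encodes the constant region of the IgM heavy chain, made by B and plasma cells, and Igkv8-30 a variable segment of the kappa light chain. Ighm was at 5.96, 6.07, 4.75 and 4.00 at 6 months, 8.17, 9.41, 10.62 and 9.19 at 12 months, 12.14, 9.14, 11.18 and 9.23 at 18 months and 11.01, 11.66, 11.27 and 9.09 at 24 months. No array at 6 months was above background and all later arrays were, so most of the step lay between 6 and 12 months, inside the younger set, and the older arrays overlapped those at 12 months. The sets differed by 3.32 ± 0.57 (SE, adjusted p = 0.0238), with 3.15 at 18 months (adjusted p = 0.237) and 3.49 at 24 months (adjusted p = 0.0293). Igkv8-30 ran from 6.60 to 7.00 at 6 months, 7.86 to 9.71 at 12 months, 8.67 to 11.18 at 18 months and 8.48 to 10.82 at 24 months, and differed by 2.14 ± 0.41 (SE, adjusted p = 0.0393). Both passed at 24 months alone. Ighm kept its call in 10 and Igkv8-30 in 3 of the 16 fits that left out 1 animal, with adjusted p up to 0.0684 and 0.0916. The mean over all probe sets of Ighm gave a difference of 0.89 between the sets, which was not called.

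The fixed markers of B and plasma cells did not all move with Ighm. Of 7, 5 were measured; Jchain, the joining chain of IgM and IgA, differed by 1.58 ± 0.35 (SE, adjusted p = 0.0693), Ms4a1 by 0.23 and Mzb1 by 0.04, and Cd79a was above background on 0 arrays. The summed level of the 5, Ighm among them, was 7.63 to 7.97 at 6 months, 9.13 to 11.01 at 12 months, 9.73 to 12.48 at 18 months and 9.64 to 12.02 at 24 months. Linear intensities were summed, so Ighm weighs most at 18 and 24 months, with means of 10.42 and 10.76 against 8.78 and 8.53 for Jchain. The sum is therefore no separate sign that the markers rose together. Of the list of 31 measured B and plasma cell genes, 1 passed, beside 0.555% of all genes, and the median change was 0.17. In whole liver RNA, a change in the number of cells of a type and a change in RNA per cell cannot be told apart.

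**Figure D2:**
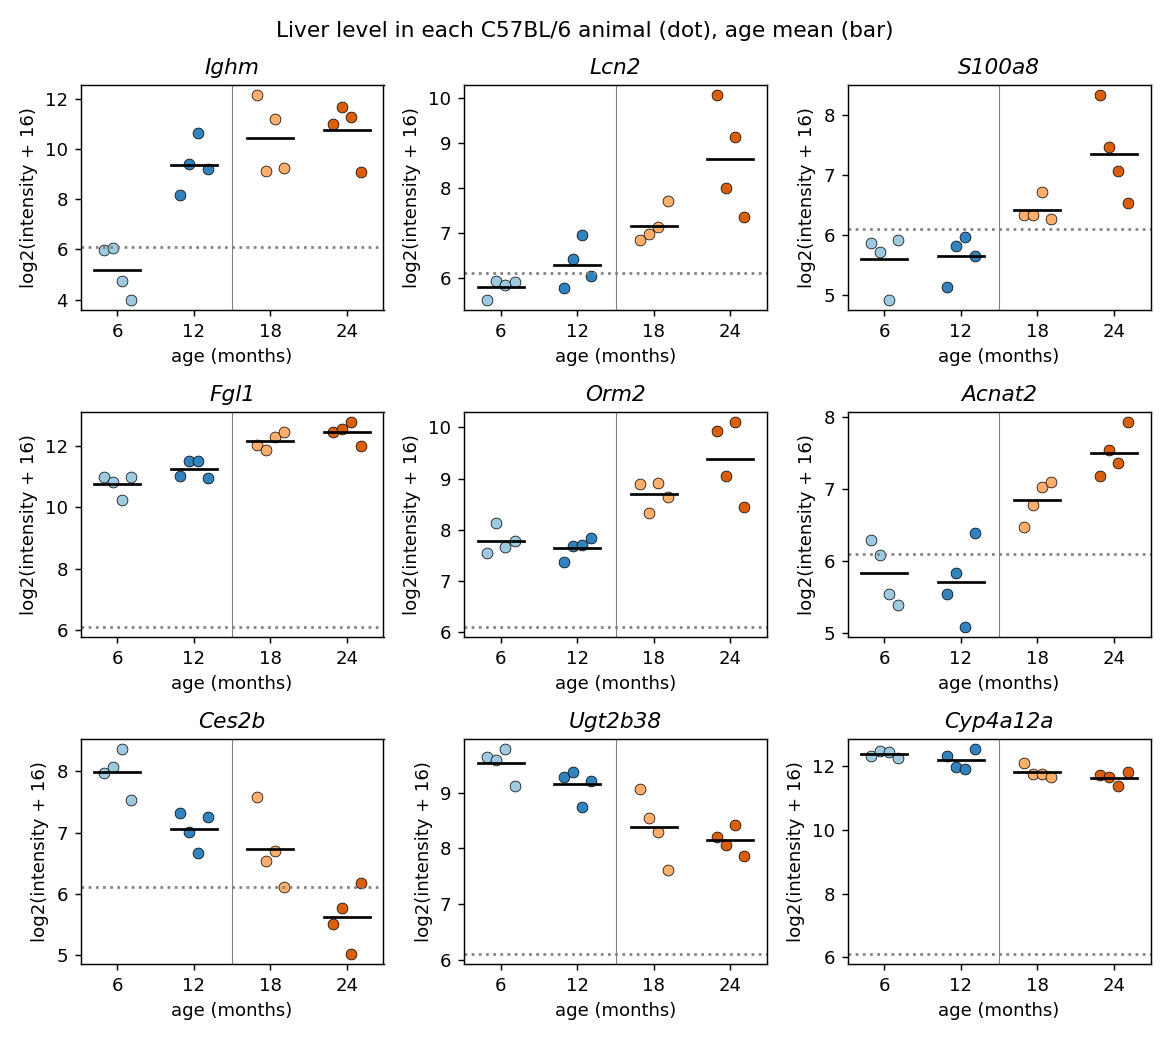
Level of 9 genes in each of the 16 animals (dots) with the mean of each age (bars), as log2(intensity + 16) against age in months; the vertical line parts the sets and the dotted line is the bound of background at 6.1. For Fgl1, Orm2, S100a8 and Acnat2 no older animal overlaps a younger one, while Ighm is already high at 12 months and Ces2b and Ugt2b38 are lower at 12 than at 6 months in mean.

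Acute phase genes held the most calls of any list. Of 33 measured, 9 rose and 0 fell between the sets, beside 0.368% and 0.187% of all genes. Of 33 differences 29 were positive, with a median of 0.19 against -0.01 for all genes. Over all genes 8004 differences were positive and 9454 negative. These values over all genes are the comparison for the lists below. The genes of a list were measured in the same animals, so the signs within a list are not independent of each other. The 9 were Lcn2, Orm2, Fgl1, Apcs, Stat3, Itih4, Ifitm3, Hp and Cp. All 9 passed at 24 months alone, and their changes at 18 months were between 0.14 and 1.16. Fgl1, a fibrinogen-like protein that hepatocytes secrete, was at 11.01, 10.84, 10.24 and 11 at 6 months, 11.03, 11.51, 11.52 and 10.97 at 12 months, 12.05, 11.88, 12.31 and 12.46 at 18 months and 12.48, 12.57, 12.78 and 12.02 at 24 months. Every older animal was above every younger one, and the rise of 1.31 ± 0.15 (SE, adjusted p = 0.00472) was 1.16 at 18 months (adjusted p = 0.0648) and 1.45 at 24 months (adjusted p = 0.00693).

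Orm2, an orosomucoid of plasma, showed the same separation, with 7.54, 8.13, 7.67 and 7.78 at 6 months, 7.37, 7.69, 7.70 and 7.84 at 12 months, 8.90, 8.32, 8.92 and 8.64 at 18 months and 9.94, 9.05, 10.10 and 8.44 at 24 months. It rose by 1.32 ± 0.21 (SE, adjusted p = 0.0175), 0.98 at 18 months and 1.67 at 24 months. Lcn2 encodes lipocalin 2, which binds bacterial iron carriers and is made by hepatocytes in the acute phase and by granulocytes. Its levels were 5.51, 5.92, 5.84 and 5.90 at 6 months, 5.78, 6.42, 6.94 and 6.03 at 12 months, 6.83, 6.98, 7.12 and 7.70 at 18 months and 10.06, 7.99, 9.12 and 7.35 at 24 months. The rise was 1.85 ± 0.33 (SE, adjusted p = 0.0299) between the sets, 1.11 at 18 months and 2.59 at 24 months, and the 24 months animals were also the most spread out.

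The more abundant acute phase proteins moved less. Itih4, an inter-alpha-trypsin inhibitor heavy chain, lay between 12.89 and 13.22 in the younger set and between 13.35 and 13.64 in the older set, without overlap, and rose by 0.37 ± 0.04 (SE, adjusted p = 0.00472). Haptoglobin (Hp), which binds free haemoglobin, rose by 0.22 ± 0.03 (SE, adjusted p = 0.011) and ceruloplasmin (Cp), the copper carrier of plasma, by 0.17 ± 0.03 (SE, adjusted p = 0.0481). Apcs, the serum amyloid P component, rose by 0.92 and Stat3, the factor that relays interleukin-6, by 0.49. Array median scaling does not equalise the brightest genes between arrays. Under it, the change at 24 months turned to -0.04 for Hp, -0.06 for Cp and -0.01 for Ifitm3. It turned to -0.08 for the plasma protein gene Ambp, which had passed with 0.16 between the sets and 0.23 at 24 months. Under this scaling 4 acute phase genes passed between the sets and 3 at 24 months, in place of 9 and 10. The list median was then 0.14 for the sets and 0.03 at 24 months, where it was 0.26 with quantile normalization.

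The list level, the median over its 33 genes on an array, was 10.39 to 10.71 on the 8 younger arrays and 10.94 to 11.44 at 18 months. At 24 months replicates 25, 29 and 33 had 11.84, 11.58 and 11.48, and replicate 34 had 10.56, inside the younger range. Without replicate 34, 11 acute phase genes passed for the sets and 15 at 24 months, where 10 passed on all arrays. Without replicate 33, 5 and 2 passed, and without replicate 25, 8 and 5.

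**Figure D3:**
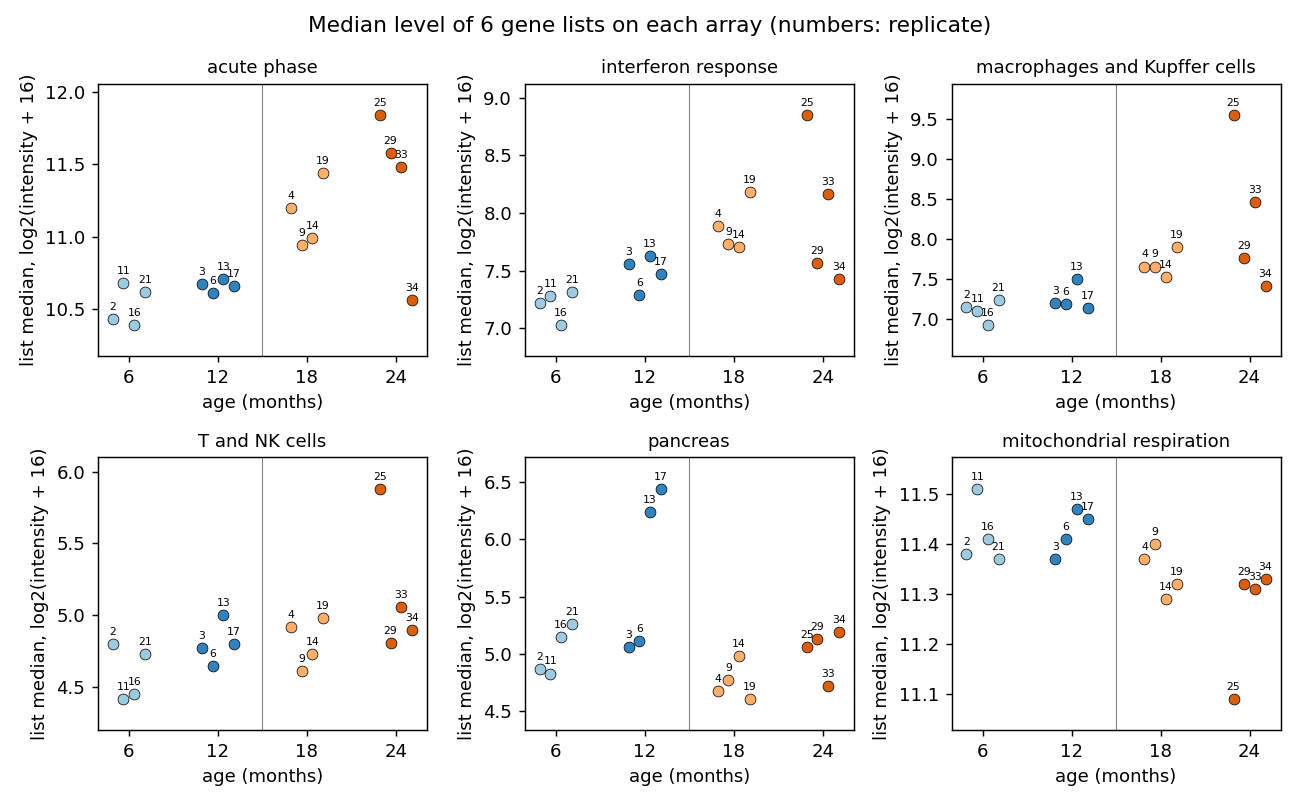
Median level of 6 gene lists on each array, as log2(intensity + 16), against age in months; each dot is 1 animal with its replicate number. Replicate 25 at 24 months is the highest for the acute phase, interferon, macrophage and T and NK cell lists and the lowest for mitochondrial respiration, replicate 34 is close to the younger set for the first 3, and replicates 13 and 17 at 12 months are the highest for pancreas genes.

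Genes induced by interferon, the signal by which cells answer viruses and other alarms, were higher on balance. Of 47 measured, 4 rose (Ly6e, Ifi27, Ddx58 and Ifitm3) and 0 fell between the sets, beside 0.368% and 0.187% of all genes. In sign, 46 differences were positive and none was negative, and the median was 0.49, with 0.41 at 18 months and 0.60 at 24 months. Ly6e, a membrane protein of the Ly6 family, was at 10.89, 11.24, 10.81 and 11.13 at 6 months, 11.35, 11.53, 11.77 and 11.47 at 12 months, 11.93, 11.76, 11.78 and 12.31 at 18 months and 12.94, 11.93, 12.44 and 11.81 at 24 months. The sets met at 11.77 and 11.76, and the rise was 0.84 ± 0.15 (SE, adjusted p = 0.0325), 0.67 at 18 months and 1.01 at 24 months. Ifi27 rose by 0.77 ± 0.12 (SE, adjusted p = 0.0152) with near equal changes of 0.70 and 0.84. Ddx58 encodes RIG-I, a sensor of viral RNA, and rose by 0.34 ± 0.05 (SE, adjusted p = 0.0152), with 0.35 at 18 months and 0.33 at 24 months. All 4 passed at 24 months alone.

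The interferon list level ran from 7.03 to 7.63 in the younger set, from 7.71 to 8.18 at 18 months and, for replicates 25, 29, 33 and 34 at 24 months, was 8.85, 7.57, 8.17 and 7.43. Every 18 months animal was above every younger animal, whereas 2 of the 24 months animals were within the younger range. The median change of the list at 24 months was 0.32 without replicate 25 and 0.79 without replicate 34, and the count of called genes between the sets was 7 and 12. It was 2 without replicate 33 and 1 without the 12 months replicates 13 and 17.

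Promoters of called genes were read from the RefSeq promoter table (mouse build GRCm38.p6) as the 250 bases before a transcript start that the table lists for the gene; 81 of the 101 genes had an entry. The windows of Trim30d, Ifitm2 and Itih4 are shown, chosen after their values were seen, because these genes had sets that did not overlap and hold the core letters of a known element near that start. The start listed for Ifitm2 lies inside the span of the gene. Trim30d is a member of the TRIM30 family of interferon-induced genes and Ifitm2 an interferon-induced membrane protein; capitals mark the core of the interferon-stimulated response element (GAAA, any 2 bases, GAAA), on the reverse strand in Trim30d, or for Itih4 the STAT element TTCNNNGAA.
Trim30d, chr7:104507850-104508099, minus strand: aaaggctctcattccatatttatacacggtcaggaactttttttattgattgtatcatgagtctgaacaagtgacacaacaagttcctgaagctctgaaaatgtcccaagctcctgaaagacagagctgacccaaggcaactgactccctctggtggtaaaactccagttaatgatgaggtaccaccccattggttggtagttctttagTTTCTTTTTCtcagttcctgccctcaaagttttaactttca
Ifitm2, chr7:140955962-140956211, minus strand: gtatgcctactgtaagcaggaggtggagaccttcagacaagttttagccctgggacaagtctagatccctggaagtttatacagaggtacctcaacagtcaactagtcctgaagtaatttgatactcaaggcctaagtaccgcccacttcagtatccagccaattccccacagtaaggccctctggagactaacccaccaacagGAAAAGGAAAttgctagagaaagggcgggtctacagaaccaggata
Itih4, chr14:30886226-30886475, plus strand: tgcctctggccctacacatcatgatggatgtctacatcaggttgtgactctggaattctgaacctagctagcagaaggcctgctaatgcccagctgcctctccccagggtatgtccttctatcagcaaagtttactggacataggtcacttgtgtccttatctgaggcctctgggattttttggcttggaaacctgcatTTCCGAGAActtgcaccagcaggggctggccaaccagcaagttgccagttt

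The first capital lies 41, 46 and 51 bases before the listed transcript start in Trim30d, Ifitm2 and Itih4. Trim30d was between 6.46 and 7.20 in the younger set and between 7.33 and 8.28 in the older set, a rise of 0.81 (adjusted p = 0.0152), and Ifitm2 rose by 0.27 (adjusted p = 0.0169); both passed at 24 months alone. Searched on both strands, the interferon element was in 6% of the called higher genes with a window, in 9.68% of the called lower genes and in 3.13% of measured genes, and the STAT element in 8%, 6.45% and 7.42%. A match describes the letters of the window and is not a bound site; with 50 higher and 31 lower genes, these shares rest on 3 or fewer genes for the interferon element and on 4 or fewer for the STAT element.

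Macrophage and Kupffer cell genes shifted with few calls. Of 47 measured, 1 rose and 0 fell between the sets, beside 0.368% and 0.187% of all genes. Of the differences, 43 were positive, with a median of 0.65, of 0.36 at 18 months and of 0.93 at 24 months. The called gene was Cd9, a tetraspanin found on many cell types, which ran from 7.42 to 7.97 in the younger set, 7.81 to 8.11 at 18 months and 8.06 to 8.71 at 24 months, a rise of 0.50 ± 0.08 (SE, adjusted p = 0.0218; 24 months alone). At 24 months Vsig4, the complement receptor of Kupffer cells, and Laptm5, a lysosomal protein of blood cells, also rose, by 1.32 (adjusted p = 0.0496) and 1.33 (adjusted p = 0.0463), and so did the dim gene Mmp12, which was above background on 0 arrays. The Kupffer marker Clec4f was at 11.82, 10.12, 10.87 and 9.80 in replicates 25, 29, 33 and 34 and at 9.52 to 10.34 in the other 12 animals. Its difference between the sets was 0.58 ± 0.23 (SE, adjusted p = 0.268), and that of the macrophage receptor gene Csf1r was 0.56 ± 0.18 (SE, adjusted p = 0.172).

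One animal was set apart here. The list level of 9.55 in 24 months replicate 25 compares with 8.47, 7.77 and 7.42 in replicates 33, 29 and 34, 7.53 to 7.90 at 18 months and 6.93 to 7.51 in the younger set. That animal also had the highest list levels for T and NK cells (5.88, others 4.42 to 5.06) and for proliferation genes (6.47, others 4.99 to 5.50). Without it the macrophage median at 24 months was 0.51, with 1 gene called there in place of 4; without replicate 34 it was 1.21, with 25 called. T and NK cell genes had 0 calls of 41, and a median change at 24 months of 0.29 with replicate 25 and 0.04 without it. Proliferation genes had a median of 0.27 with it and 0.01 without it.

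Granulocyte genes gave 3 rises and 0 falls of 22 measured, beside 0.368% and 0.187% of all genes. The 3 were S100a8, Lcn2 and Hp, the last pair being hepatocyte products as well and counted above. S100a8, a calcium-binding alarm protein of neutrophils, was at 5.87, 5.71, 4.92 and 5.91 at 6 months, 5.13, 5.81, 5.97 and 5.65 at 12 months, 6.34, 6.34, 6.71 and 6.27 at 18 months and 8.33, 7.46, 7.06 and 6.54 at 24 months. No younger array and every older array was above background, so the rise was at least 1.72-fold (adjusted p = 0.0344; 24 months alone). Its partner S100a9 differed by 0.74 between the sets (adjusted p = 0.141) and rose by 1.17 at 24 months (adjusted p = 0.0454). The neutrophil granule gene Camp was above background on 0 arrays, and Ngp differed by -0.11. Mmp14, a membrane-bound matrix protease, was the 1 call of 50 stellate cell and matrix genes and rose by 0.49 ± 0.08 (SE, adjusted p = 0.0152; 24 months alone), with 44 of the 50 differences positive and a median of 0.19, which was 0.11 without replicate 25; Col1a1, a main collagen, was above background on 2 of 16 arrays.

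Antigen presentation genes were all on one side without a call for the sets: 24 of 24 differences were positive, with a median of 0.27. Over all genes 8004 were positive and 9454 negative, and the 24 were read in the same animals. B2m, the common subunit of class I molecules, rose by 0.17 at 24 months (adjusted p = 0.0322) and Tapbp, which loads peptides on class I molecules, by 0.52 (adjusted p = 0.0451). H2-Oa also passed at 24 months but was above background on 0 arrays. On this list 0 genes passed at 24 months in limma without replicate 25, without replicate 33, without 12 months replicates 13 and 17 or under array median scaling. Chemokine and cytokine genes had 0 calls of 42 and a median of 0.19, which was 0.04 without replicate 25.

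**Figure D4:**
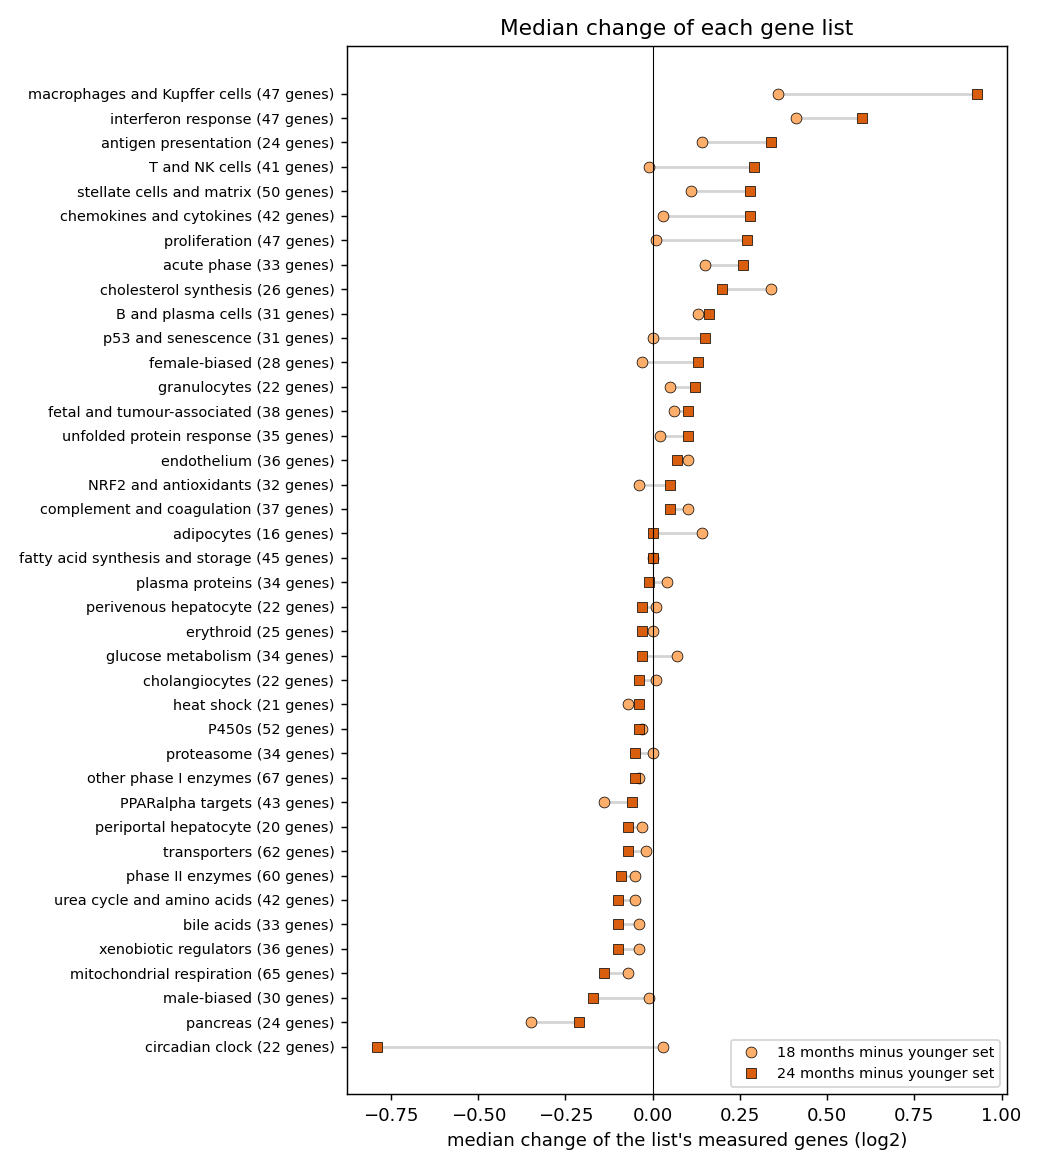
Median change of the measured genes of each list at 18 months (circles) and at 24 months (squares) against the younger set, in log2 units; the number of genes stands in brackets. The macrophage, interferon and antigen presentation lists have the highest medians at 24 months, and the circadian clock list moves from 0.03 at 18 months to -0.79 at 24 months.

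Few genes of detoxification passed, and the counts of falls and rises moved with the animals included and with the scaling. The 4 lists of xenobiotic metabolism held 282 symbols, 241 of them measured; 2 rose and 7 fell between the sets, beside 0.368% and 0.187% of all genes, and the median change was -0.05. The 7 falls were Ces2b, Ces2a, Ugt2b38, Ugt2b1, Mettl7a1, Cyp4a12a and Cyp2j6, and the 2 rises were Papss1, which makes the sulfate donor of phase II sulfation (0.43), and Slc13a3, a dicarboxylate carrier. All 9 passed at 24 months alone. There were 2 rises and 1 fall without 12 months replicates 13 and 17 together. Rises and falls were 3 and 7 without 24 months replicate 25, 1 and 4 without replicate 33, and 3 and 12 without replicate 34. Array median scaling gave 1 and 3, so falls stayed more frequent than rises except without replicates 13 and 17.

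The deepest fall was that of Ces2b, a carboxylesterase that splits ester bonds of drugs and lipids. Its levels were 7.97, 8.08, 8.36 and 7.54 at 6 months, 7.32, 7.01, 6.66 and 7.25 at 12 months, 7.59, 6.53, 6.70 and 6.11 at 18 months and 5.50, 5.77, 5.01 and 6.18 at 24 months. Levels at 12 and 18 months overlapped, and 3 of 4 animals at 24 months were not above background. It fell by 1.35 ± 0.22 (SE, adjusted p = 0.0178), with -0.79 at 18 months and -1.91 at 24 months, and it kept its call in all 16 fits that left out 1 animal; without 12 months replicates 13 and 17 together the change was -1.39 (adjusted p = 0.0559). Its relative Ces2a fell by 0.26 (adjusted p = 0.016) without overlap of the sets, and had an adjusted p of 0.0626 without these animals.

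Ugt2b38 encodes a UDP-glucuronosyltransferase, an enzyme that tags steroids and drugs with glucuronic acid. It was at 9.65, 9.59, 9.78 and 9.13 at 6 months, 9.28, 9.37, 8.75 and 9.21 at 12 months, 9.07, 8.54, 8.30 and 7.61 at 18 months and 8.21, 8.07, 8.43 and 7.87 at 24 months. All 24 months animals were below all younger animals, and 1 animal at 18 months was not. The fall of 1.08 ± 0.18 (SE, adjusted p = 0.023) was -0.96 at 18 months (adjusted p = 0.248) and -1.20 at 24 months (adjusted p = 0.0225). Ugt2b1 of the same family fell by 0.26 ± 0.04 (SE, adjusted p = 0.0152). Members of these families are close in sequence, so probe sets may read more than 1 of them.

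Among 52 P450 genes 2 fell and 0 rose, beside 0.187% and 0.368% of all genes. Cyp4a12a, a fatty acid hydroxylase more abundant in male than in female mouse liver, was at 12.31, 12.48, 12.46 and 12.26 at 6 months, 12.32, 11.99, 11.92 and 12.53 at 12 months, 12.10, 11.76, 11.76 and 11.65 at 18 months and 11.74, 11.65, 11.38 and 11.82 at 24 months. All 4 animals at 24 months and 3 of 4 at 18 months were below every younger animal, and the fall was 0.55 ± 0.10 (SE, adjusted p = 0.03). Cyp2j6 fell by 0.38 ± 0.07 (SE, adjusted p = 0.0299). The abundant P450s gave small differences: Cyp3a11 differed by -0.01 ± 0.03 (SE), Cyp2e1 by -0.02 ± 0.02 (SE) and Cyp1a2 by -0.29 ± 0.11 (SE), the last with -0.48 at 24 months (adjusted p = 0.0717). The receptor genes Nr1i3 (CAR) and Nr1i2 (PXR) differed by -0.09 ± 0.17 (SE) and -0.28 ± 0.10 (SE), and of 36 xenobiotic regulators 0 passed.

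Male-biased genes overlapped with these falls: of 30 measured, 3 fell (Ugt2b38, Cyp4a12a and Ugt2b1) and 0 rose, beside 0.187% and 0.368% of all genes. The list median was -0.07, with -0.01 at 18 months and -0.17 at 24 months. Ghr, the growth hormone receptor, and Keg1 also fell at 24 months, by 0.23 (adjusted p = 0.0193) and 0.47 (adjusted p = 0.036). Hsd3b5, a steroid reductase of male liver, had -0.54 at 24 months (adjusted p = 0.135), with 11.54 to 11.84 there and 11.36 to 12.63 in the younger set. Female-biased genes had 0 calls of 28 and a median of 0.04; the median was 0.10 without 24 months replicate 33, 0.09 without replicate 34, and 0.19 without 12 months replicates 13 and 17, with 21 of 28 differences then positive.

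Among the other named falls, Acsm3, a medium-chain acyl-CoA synthetase of mitochondria, was at 9.86, 10.01, 10.09 and 10.08 at 6 months, 9.88, 9.65, 9.66 and 9.65 at 12 months, 9.68, 9.49, 9.53 and 9.54 at 18 months and 8.83, 9.35, 9.23 and 9.36 at 24 months. It fell by 0.48 ± 0.08 (SE, adjusted p = 0.0152), and the means went down at each age. Aadat, an aminotransferase of lysine and tryptophan breakdown, lay between 10.97 and 11.41 in the younger set and between 10.47 and 10.93 in the older set, without overlap, and fell by 0.47 ± 0.07 (SE, adjusted p = 0.0152). Otc, the urea cycle enzyme ornithine transcarbamylase, fell by 0.22 ± 0.04 (SE, adjusted p = 0.0421). Mtf1, the metal-responsive transcription factor, fell by 0.42 between the sets but had most of its step between 6 months (7.78 to 8.04) and 12 months (7.28 to 7.55). Arhgap4 fell by 0.75, Btrc, a subunit of a ubiquitin ligase, by 0.44, and Selenbp1, a selenium-binding protein, by 0.36. All 7 of these genes passed at 24 months alone. The mean over all probe sets gave -0.05 for Mtf1, -0.12 for Btrc and -0.44 for Arhgap4, none of them called.

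Genes of mitochondrial respiration leaned down together by a small amount. None of 65 passed between the sets in limma, where 62 differences were negative and the median was -0.09. At 24 months 5 of the 65, subunits of complexes I, II and III, fell, beside 1.2% of all genes. Sdhb, of complex II, fell there by 0.29 (adjusted p = 0.0322) and Ndufb3, of complex I, by 0.35 (adjusted p = 0.0372). The list level was 11.09 in 24 months replicate 25 and 11.29 to 11.51 in the other 15 animals, and without that animal 0 of the 65 passed at 24 months.

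Lipid genes gave 2 further rises, both of fatty acid synthesis: Fasn, described above, and Acly, which supplies its acetyl-CoA, by 0.45 (adjusted p = 0.0342; 24 months alone). These were 2 of 45 genes of fatty acid synthesis and storage, whose median was 0.01, beside 0.368% of all genes called higher. Cholesterol synthesis had 0 calls of 26 with 20 positive differences and a median of 0.23, with 0.34 at 18 months and 0.20 at 24 months; the last was 0.32 without replicate 25, when 3 genes passed between the sets, and 0.12 without replicate 33. Hmgcs1, an early enzyme of that path, rose by 0.52 at 24 months (adjusted p = 0.0435). Targets of PPARalpha, the receptor that drives fatty acid burning, had 0 calls of 43, with 35 negative differences and a median of -0.11. Fgfr4, the receptor by which hepatocytes sense FGF15 and limit bile acid synthesis, rose by 0.27 ± 0.05 (SE, adjusted p = 0.0483; 24 months alone), with 7.92 to 8.20 at 6 months and 8.42 to 8.63 already at 12 months. Cyp7a1, the rate-limiting enzyme of that synthesis, differed by -0.26 ± 0.31 (SE, adjusted p = 0.749).

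Further rises lay outside the immune lists. Acnat2, an acyl-CoA:amino acid N-acyltransferase, was at 6.29, 6.09, 5.55 and 5.40 at 6 months, 5.54, 5.84, 5.09 and 6.4 at 12 months, 6.47, 6.78, 7.03 and 7.10 at 18 months and 7.19, 7.55, 7.37 and 7.93 at 24 months. Every older animal was above every younger one and all 24 months animals were above all those at 18 months, with a rise of 1.40 ± 0.20 (SE, adjusted p = 0.0116). Serpina7, the thyroxine-binding globulin of plasma, rose by 1.22 ± 0.23 (SE, adjusted p = 0.0325), from 8.88 to 10 in the younger set to 9.71 to 11.14 at 18 months and 10.70 to 11.52 at 24 months. Atp11a, a lipid flippase of the cell membrane, rose by 1.19 ± 0.21 (SE, adjusted p = 0.03), and Slc13a3 by 0.58 ± 0.08 (SE, adjusted p = 0.011) without overlap of the sets. All 4 passed at 24 months alone. Outside the naming rule and chosen after their values were seen, the paired membrane protein genes Tmem176a and Tmem176b rose by 0.68 (adjusted p = 0.00498) and 0.50 (adjusted p = 0.0128), with changes at 18 months of 0.61 and 0.44.

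Several genes fixed for their role in liver or ageing did not pass. Cdkn1a, the cell cycle inhibitor p21, differed by 0.56 ± 0.34 (SE, adjusted p = 0.48) and was above background in 3 of 4 animals at 24 months and 1 of 4 at 18 months. Albumin (Alb) differed by -0.07 ± 0.04 (SE, adjusted p = 0.448), Igf1 by -0.004 ± 0.03 (SE, adjusted p = 1) and the fetal plasma protein gene Afp was above background on 0 arrays. Atf3, a stress-induced transcription factor, was the 1 call of 35 genes of the unfolded protein response (adjusted p = 0.0412; 24 months alone), but was also above background on 0 arrays, with levels of 4.47 to 5.08 in the younger and 5.06 to 5.67 in the older set.

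Pancreas genes were raised in 2 younger animals, and 1 named fall is among them. Rnase1, the pancreatic ribonuclease, passed between the sets (adjusted p = 0.0325) and in neither older group by itself; it was above background only in 12 months replicates 13 and 17, at 6.29 and 6.39, and no fold is given. Its levels were 4.78 to 5.44 at 6 months and 4.05 to 4.74 at 18 months, all not well above background. Without replicates 13 and 17 its difference was -0.70 (adjusted p = 0.0949), the list median went from -0.24 to -0.10, and the 1 pancreas gene that passed was Prss2. In the same animals the pancreas list level was 6.24 and 6.44, against 4.61 to 5.26 in the other 14, and the pancreatic enzyme marker Cpa1 was above background in these animals alone. The part of this in other genes was not tested; without the 2 animals, 50 genes passed between the sets, 28 of them among the 101.

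Genes of the circadian clock, whose levels in liver swing over the day, varied widely between animals of 1 age. None of 22 passed between the sets in limma; the median change was -0.31, with 0.03 at 18 months and -0.79 at 24 months. Dbp, an output gene of the clock, was at 8.11, 9.79, 11.50 and 11.12 at 6 months, 7.21, 8.42, 10.94 and 10.74 at 12 months, 5.81, 9.33, 10.93 and 11.12 at 18 months and 5.68, 4.86, 5.77 and 8.29 at 24 months. Each group up to 18 months held animals with high and with low levels, while all 24 months animals were low. Up to 18 months the level followed the replicate number. Replicates 2, 3, 4 and 6 were at 5.81 to 8.42, 9 and 11 at 9.33 and 9.79, and 13 to 21 at 10.74 to 11.50. The 24 months animals are numbered 25 to 34, so age and numbering cannot be told apart there. Arntl, the gene of the core clock factor BMAL1, was at 7.97, 8.29, 7.93 and 7.20 at 24 months and ranged from 4.67 to 7.94 at the other ages. Noct, a clock-controlled phosphatase, was the 1 gene of the list past at 24 months, by 1.94 (adjusted p = 0.0299), with 10.62 to 10.93 there and 7.07 to 10.99 in the younger set. With the Dbp level as a covariate, 30 genes passed between the sets, 22 of them among the 101. The sizes of the 101 were at a median 99%, with the lowest at 66.9%. The part of time of day was not tested.

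**Figure D5:**
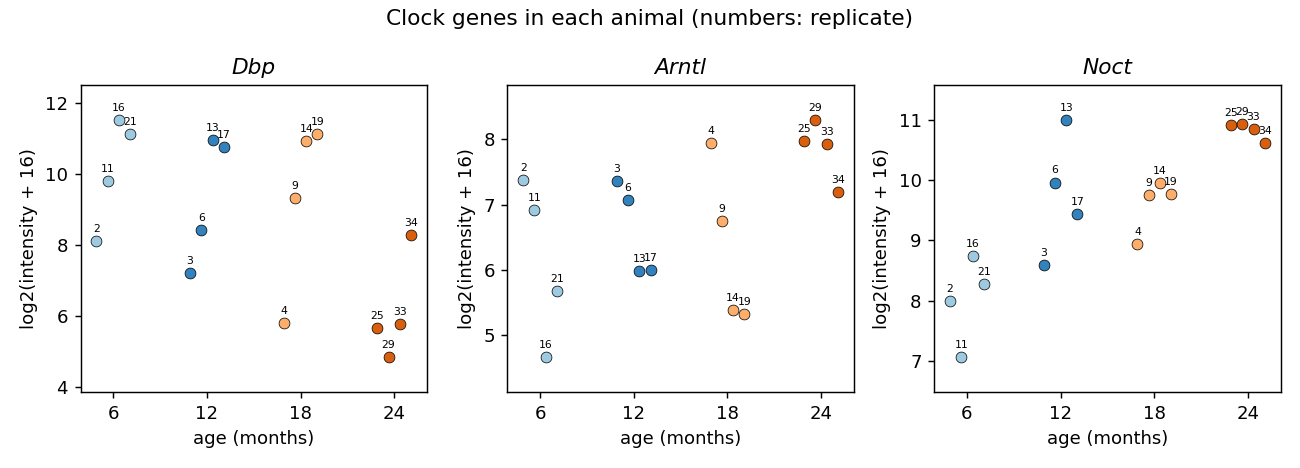
Levels of the clock genes Dbp, Arntl and Noct in each animal, as log2(intensity + 16), against age in months, with replicate numbers. Dbp spans 7.21 to 11.50 in the younger set and stays at or under 8.29 at 24 months, where Arntl is at 7.20 or above and Noct at 10.62 or above.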

How the data were processed

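The sample table lists 28 arrays, 16 of them C57BL/6, and the authors deposited linear intensity values for 45101 probe sets; some values lie below 0, with scanner software, probe summary and build not given in the sources used here. Of the probe sets, 34945 carried 1 gene symbol in the platform annotation, 932 several and 9160 none, besides 64 controls; the brightest of the first kind stood for each of 18193 genes. The 16 arrays were quantile normalized together, values below 0 set to 0 and log2(value + 16) taken. limma 3.58.1 (R 4.3.3, lmFit and eBayes, two-sided) fitted 1 mean per age; contrasts were the sets, 18 and 24 months each against the younger set, and 24 against 18 months, adjusted by Benjamini-Hochberg at 0.05. The bound of background, 52.6, was the 95th percentile of the sizes of values below 0; "at least" folds use it in place of dim values. Array number (8 a set) limits the precision. No 2 arrays were identical.

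Named genes were the 10 largest rises and falls among called genes above background in at least 1 age, leaving out predicted transcripts, the called member with the largest change in each of 40 gene lists (1658 entries, 1456 measured), and a fixed set of 13 liver and ageing genes. The age groups, lists and this rule were chosen with earlier results of these data known. Alternatives covered scaling, pseudocount, dim genes, probe set, variance, covariates, reference, threshold and each animal in turn; 3 were added after seeing the data. On simulated data, the fit was checked against the changes put in and made 10 false calls. Tables used data.table (version 1.17.8), plots matplotlib 3.10.9 (Python 3.11.15).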

Additional observations from a re-analysis of the deposited data

Results flagged for a closer look

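Among the named genes, 164 groups of 4 animals were looked at for a value far from the other 3, and 7 such values were found; chance alone marks about 5% of groups. None of the 7 was weighed further. S100a8 was at 6.71 in 18 months replicate 14, above 6.27 to 6.34 in the others of its age. Cdkn1a was at 4.04 in 6 months replicate 11, below 5.30 to 5.40, and both ranges are under the bound of background. Atf3 was at 4.51 in 12 months replicate 3, below 4.99 to 5.08, also under that bound. Fgfr4 was at 8.63 in 12 months replicate 6, above 8.42 to 8.46. Igf1 was at 12.19 in 18 months replicate 9, below 12.23 in the other 3 animals. Nr1i2 was at 8.42 in 6 months replicate 11, above 8.18 to 8.21. Acsm3 was at 9.88 in 12 months replicate 3, above 9.65 to 9.66.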

How the results depend on the processing

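No paired analysis was possible because the labels of the 4 C57BL/6 age groups share no replicate number. All 101 genes kept their sign between the sets under all alternatives run, and 40 passed in all 16 fits that left out 1 animal. The number of calls moved, given here for the sets, 18 months, 24 months, both and 24 months alone in that order. Array median scaling gave 45 (37 higher, or 82.2%, against 66.3% with quantile normalization), 3, 93, 3 and 34. All 28 arrays normalized and fitted together gave 16 (81.2% higher), 3, 23, 3 and 9. The 8 against 8 fit, with the older and younger arrays as 2 plain groups, gave 40 for the sets and 36 for 24 months alone. Array weights gave 167, 3, 656, 3 and 154, and 1 gene for 24 against 18 months. The Gapdh ratio covariate gave 6 (33.3% higher), 1, 5, 0 and 2. A minimum change of 1.5-fold gave 0 in each in limma (35, 13 and 91 genes with an unadjusted p under 0.05 for the first 3). The beta-actin ratio covariate, added after seeing the data, also gave 0 in each (2155, 1393 and 2137 unadjusted). The Dbp covariate, likewise added, gave 30 (53.3% higher), 28 at 24 months, 4 for 24 against 18 months and 15 for 24 months alone. Without 12 months replicates 13 and 17, also added, the counts were 50, 1, 239, 1 (a lower gene, not Dmrta1) and 43. Brightness as a covariate gave 142 at 24 months and 0 at 18 months and for both. Robust variance gave 222 at 24 months. Pseudocounts of 1 and 64 gave 2 and 0 at 18 months and for both, leaving out dim genes 8 and 7, and a variance trend 0 and 0. The mean of all probe sets gave 2 for 24 against 18 months. Requiring the difference between 24 and 18 months itself to pass left 0 for 24 months alone, and 6 months as the reference gave 18 for both.

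Leaving out 1 animal gave 46 to 212 calls for the sets, 0 to 15 at 18 months, 34 to 636 at 24 months, 0 to 2 for 24 against 18 months, 0 to 11 for both and 22 to 176 for 24 months alone; the highest of each came without 24 months replicate 34 or, for 24 against 18 months, replicate 25, and the cause was not tested. Under array median scaling the change at 24 months reversed for Ifitm3 (-0.009), Hp (-0.042), Cp (-0.06) and Ambp (-0.082). The signal near background limits Dmrta1, Syngr1, S100a8, Atf3 and Rnase1: 7 called genes, Atf3 among them, were above background on no array.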

Other observations

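At 24 months 282 of the 371 called genes were not called between the sets, 188 of them lower and 94 higher. Saa2, a serum amyloid A protein of the acute phase, was among these, at 10.98, 8.97, 9.63 and 8.57 in replicates 25, 29, 33 and 34 and at 7.53 to 8.38 in the other 12 animals; its change was 1.56 at 24 months (adjusted p = 0.0386 in limma) and 0.14 at 18 months. Creb3l3, a hepatocyte transcription factor, fell by 0.31 at 24 months (adjusted p = 0.0376). Complement and coagulation genes had 0 calls of 37 between the sets in limma, with a median of 0.07 that turned to -0.01 under array median scaling, and plasma protein genes had 2 calls of 34 with a median of 0.03 that turned to -0.09.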
